A study of Mus musculus with 4 samples.

Results

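H3K27ac, the acetylation of histone H3 at lysine 27 found at active promoters and enhancers, was examined around 7 genes that write, copy or remove DNA methylation: Dnmt1, Dnmt3a, Dnmt3b, Dnmt3l, Uhrf1, Tet1 and Tet2. Members were taken by position alone. They were the acetylated regions of the deposited list that overlapped a fixed window around each gene on the mouse build mm9. The rule uses no level or difference, but the genes were chosen with earlier results of these data known. This gave 30 of the 23946 listed regions: 4 in the Dnmt1 window, 5 in Dnmt3a, 2 in Dnmt3b, 3 in Dnmt3l, 4 in Uhrf1, 8 in Tet1 and 4 in Tet2. The cells were MC1-ZE7 mouse embryonic stem (ES) cells of the 129S6/SvEvTac strain, grown without feeder cells in serum medium with leukemia inhibitory factor. They carry Emerald, a green fluorescent protein that stands for Zscan4 expression in the labels. Sorting on Emerald gave 2 libraries of Emerald-negative (Zscan4-) cells and 2 of the bright Emerald-positive (Zscan4+) fraction, from 1 line and with 1 antibody. Whether the replicates came from different cultures is not said in the labels, so the p-values cover the spread of these libraries alone, part of which may be technical. Replicate 2 of both groups was prepared in its own way, with amplification before a size selection of 200 to 500 bp in place of 200 to 300 bp. No gene names come with the regions in the files. Each region is therefore given by its identifier and its mm9 position as deposited, with no exon, intron or promoter assigned. The Zscan4 state of the sorted cells was not checked against its own locus, which lies outside the 7 windows.

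DNA methylation in mammals sits mostly on cytosines that precede a guanine (CpG). Dnmt3a and Dnmt3b place it on unmarked DNA, with Dnmt3l as a partner that has no catalytic activity of its own. Dnmt1 copies it to the new strand after replication, and Uhrf1 recruits Dnmt1 by binding the DNA that is methylated on only one strand. Tet1 and Tet2 oxidise the methyl group, a step towards its removal, and both are active in ES cells. The Zscan4 zinc-finger genes are a cluster that a small part of an ES culture switches on for a short time and that the embryo uses at an early cleavage stage. The next protein-coding genes by start position in RefSeq (GRCm38.p6) were Eif3g and S1pr2 beside Dnmt1, Dtnb and Pomc beside Dnmt3a, Commd7 and Mapre1 beside Dnmt3b, Aire and Icosl beside Dnmt3l, Arrdc5 and Kdm4b beside Uhrf1, Ccar1 and Slc25a16 beside Tet1, and Ppa2 and Cxxc4 beside Tet2. Their distances were not worked out. A region at the edge of a window may belong to a neighbouring gene.

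The promoters of the 7 genes differ in how much CpG, the substrate of these enzymes, they hold themselves. The RefSeq table for GRCm38.p6 held 14 promoters of 300 bases for all 7 genes, each running from 250 bases before to 50 bases after a transcription start. The motif CG, which reads the same on both strands, was counted in each. The Tet2 promoter held 57, and 0.2% of the 32851 promoters of that length held as many or more. Dnmt3a had 46 and 47 at its first pair of starts and 18 at the third. Dnmt3b had 30, the third Dnmt1 start and the second Uhrf1 start 33 each, and Tet1 17. The 3 Dnmt3l starts had 6, 4 and 3, at or below the median of 7 over all promoters. Tet2 and Dnmt3b are printed because their windows held the regions called below, and the most upstream Dnmt1 start because it was the poorest of the 14 with 2. They are given 5′ to 3′ with each CG in capitals. Tet2 lies at chr3:133544341-133544640 on the minus strand, Dnmt3b at chr2:153649199-153649498 on the plus strand and the Dnmt1 start at chr9:20959839-20960138 on the minus strand. These positions are on GRCm38 and those of the regions on mm9, so no overlap between a promoter and a region was worked out.
Tet2: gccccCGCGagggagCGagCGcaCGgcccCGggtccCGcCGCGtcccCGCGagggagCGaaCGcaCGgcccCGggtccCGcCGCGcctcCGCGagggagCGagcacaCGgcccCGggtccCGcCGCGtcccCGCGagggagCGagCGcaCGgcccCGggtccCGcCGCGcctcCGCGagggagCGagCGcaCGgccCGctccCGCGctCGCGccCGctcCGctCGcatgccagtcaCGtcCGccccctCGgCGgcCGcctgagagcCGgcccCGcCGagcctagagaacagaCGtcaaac
Dnmt3b: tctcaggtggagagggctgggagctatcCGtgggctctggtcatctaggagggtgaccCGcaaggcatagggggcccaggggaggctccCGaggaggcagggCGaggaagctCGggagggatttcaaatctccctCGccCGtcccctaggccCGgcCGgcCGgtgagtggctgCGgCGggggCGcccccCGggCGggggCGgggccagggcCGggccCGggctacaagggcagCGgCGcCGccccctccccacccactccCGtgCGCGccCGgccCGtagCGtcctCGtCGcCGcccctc
Dnmt1, most upstream start: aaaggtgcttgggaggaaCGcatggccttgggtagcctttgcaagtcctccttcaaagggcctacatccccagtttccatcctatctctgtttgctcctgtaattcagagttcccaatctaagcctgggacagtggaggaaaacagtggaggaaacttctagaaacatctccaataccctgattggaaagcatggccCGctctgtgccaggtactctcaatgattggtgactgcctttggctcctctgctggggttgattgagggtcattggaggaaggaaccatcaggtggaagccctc

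Of the 30 regions, 2 rose and 1 fell in Zscan4+ cells. Both rises were in the Tet2 window, at R14529 and R14528, and the fall was at R13068 in the Dnmt3b window. Values are RPKM, the reads in a region divided by the width in kilobases and by the sequencing depth of the library; RPM is the same value without the division by width. A log2 difference is the mean of Zscan4+ minus that of Zscan4- on log2(RPKM + 0.5), a scale that understates changes at low levels. Regions were called by limma, fitted over all 23946 regions, at a Benjamini-Hochberg adjusted p of at most 0.05. Over the whole list 8.01% of regions were called higher and 6.82% lower, and 2 and 1 of 30 do not exceed those shares. The count of lower regions depended on the scaling and on single libraries. With the replicate number as a block, limma called 3 of the 30 higher and 2 lower, against 9.35% and 10.9% of all regions. With each library centred on its median they were 3 and 2, against 14.1% and 15.1%, and with quantile normalization 3 and 2, against 13.8% and 13.7%. With the block and median centring together, the counts were 4 and 7, against 20.7% and 24.5%.

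Each library held between 9930415 and 18283560 reads, recovered from the steps of the RPKM values. The listed regions took 16.75% and 17.88% of the reads of Zscan4- replicates 1 and 2, and 12.97% and 19.14% of those of Zscan4+ replicates 1 and 2. Zscan4+ replicate 1 therefore lay low over much of the list, with a median of 3.8 RPKM against 4.77, 5.08 and 5.48 in the other libraries. Over all regions the median log2 difference was -0.37 in replicate pair 1 and 0.05 in pair 2. Values of the members are read beside these.

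**Figure D1:**
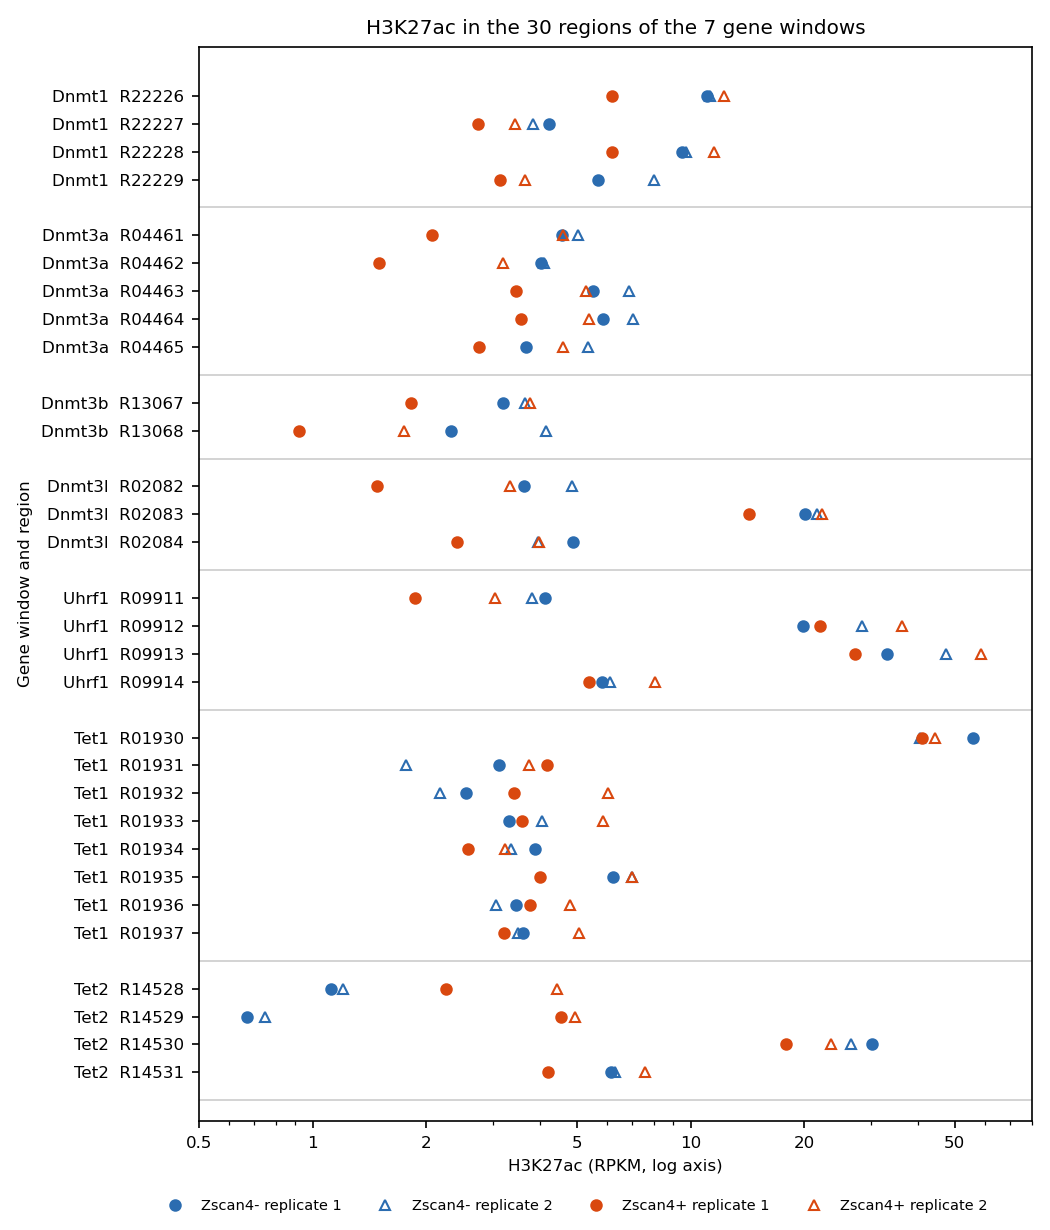
H3K27ac of each of the 30 regions (rows, by gene window) in RPKM on a log axis, with 1 point per library: blue for Zscan4-, orange for Zscan4+, filled circles for replicate 1 and open triangles for replicate 2. The Zscan4+ points of R14528 and R14529 in the Tet2 window lie to the right of both Zscan4- points, and those of R13068 in the Dnmt3b window to the left.

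The 14 regions of the methyltransferase windows all had a fitted difference below 0, with a median of -0.46 and a range from -1.02 to -0.17. Over all regions 61.7% were below 0 and the median was -0.17. One of the 14, R13068, was called lower and none higher, where 6.82% and 8.01% of all regions were. At an unadjusted limma p under 0.05, 4 of the 14 were lower, where 15.4% of all regions were. In 7 of the 14, both Zscan4+ libraries lay below both Zscan4- libraries, a pattern held by 35.1% of all regions. The direction was less even by replicate. All 14 were lower in Zscan4+ cells in pair 1, where 72.8% of all regions were, and 9 of 14 in pair 2, where 46.2% of all regions were. After centring each library on its median all 14 stayed below 0, with a median of -0.36 against -0.07 over all regions. Without Zscan4+ replicate 1, which lay low over the list, 9 of 14 were below 0 and the median was -0.17, against 0.09 over all regions. The 14 regions were chosen as a group of genes and share libraries, so this count carries no test.

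**Figure D2:**
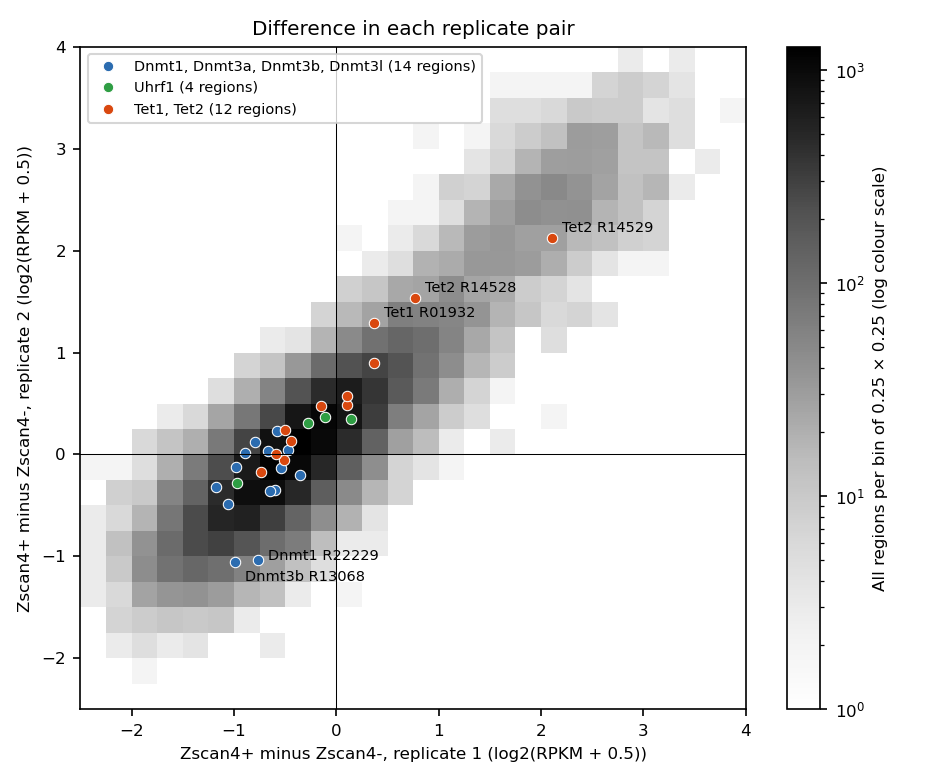
Difference between Zscan4+ and Zscan4- cells on log2(RPKM + 0.5) in replicate pair 1 (horizontal) and pair 2 (vertical), with all 23946 regions as grey bins on a log colour scale and the 30 members as points coloured by gene group. The 14 methyltransferase regions lie left of 0, and Tet2 R14529 lies far from the rest at 2.10 and 2.12. The horizontal and vertical positions of most members differ. Over all regions the median difference was -0.37 in pair 1 and 0.05 in pair 2.

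Dnmt1, the maintenance methyltransferase, had 4 regions in its window. The strongest, R22226 (chromosome 9, 20691548 to 20693512), had 11.07 and 11.24 RPKM in Zscan4- replicates 1 and 2 and 6.18 and 12.28 RPKM in Zscan4+ replicates 1 and 2. R22228 (20756242 to 20758216) had 9.48 and 9.73 RPKM in the Zscan4- and 6.18 and 11.52 RPKM in the Zscan4+ libraries. In both, the Zscan4- values lay between those of the Zscan4+ libraries, with log2 differences of -0.34 and -0.17 and limma adjusted p of 0.64 and 0.83. The lowest difference was that of R22229 (20776249 to 20777614), near the upper edge of the window. It had 5.68 and 8.00 RPKM in Zscan4- and 3.13 and 3.64 RPKM in Zscan4+ cells, with no overlap between the groups. Its log2 difference of -0.90 (standard error 0.36) missed the threshold at a limma adjusted p of 0.067. With the replicate block it passed, at an adjusted p of 0.024, and also with median centring at 0.016. Its rank was also lower: it stood at percentiles 61.7 and 73.0 of all regions in the Zscan4- libraries, and at 33.9 and 20.2 in the Zscan4+ libraries. The fourth region, R22227 (20717922 to 20719497), had 4.22 and 3.82 RPKM in Zscan4- and 2.74 and 3.43 RPKM in Zscan4+ cells, without overlap, at a log2 difference of -0.34 (adjusted p = 0.60).

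Dnmt3a, a de novo methyltransferase, had 5 regions, and none was called. The strongest by mean RPKM, R04464 (chromosome 12, 3889396 to 3890133), had 5.87 and 7.03 RPKM in Zscan4- and 3.56 and 5.37 RPKM in Zscan4+ cells. R04462 (3825592 to 3826320) had 4.01 and 4.10 RPKM in Zscan4- and 1.5 and 3.19 RPKM in Zscan4+ cells. Groups did not overlap in either. Their log2 differences were -0.50 and -0.75, with limma adjusted p of 0.39 and 0.15. Both were called with the block and median centring together, at limma adjusted p of 0.036 and 0.027. That setting called 24.5% of all regions lower. R04465 (3890805 to 3892390), whose centre lies 1.83 kb from that of R04464, had the smallest difference of the 5. It had 3.68 and 5.36 RPKM in Zscan4- and 2.76 and 4.60 RPKM in Zscan4+ cells, where the groups overlapped, and its log2 difference was -0.28 with a limma adjusted p of 0.68. R04463 (3870696 to 3872592) had 5.52 and 6.89 RPKM in Zscan4- and 3.46 and 5.30 RPKM in Zscan4+ cells, just without overlap. R04461 (3780292 to 3781877), at the lower edge of the window, had 4.57 and 5.04 RPKM against 2.07 and 4.60 RPKM, where Zscan4+ replicate 2 reached the Zscan4- level. Their log2 differences were -0.48 and -0.55, with adjusted p of 0.43 and 0.33. Summed over the window, H3K27ac was 34.3 ± 4.90 RPM in Zscan4- and 24.4 ± 9.18 in Zscan4+ cells (SD, n = 2). Of that sum, the wider R04463 held 34.0% and 34.6% in Zscan4- and 36.6% and 32.5% in Zscan4+ cells. R04464 held 14.1% and 13.7% against 14.6% and 12.8%.

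Dnmt3b, the other de novo methyltransferase, had the only called fall among the 30. R13068 (chromosome 2, 153477555 to 153478206) had 2.32 and 4.15 RPKM in Zscan4- replicates 1 and 2 and 0.92 and 1.74 RPKM in Zscan4+ replicates 1 and 2. Within each pair the Zscan4+ value was well below the Zscan4- value, and the groups did not overlap. The log2 difference was -1.02 (standard error 0.36, limma adjusted p = 0.037), and it was -0.99 in pair 1 and -1.05 in pair 2. These levels rest on 15 and 48 reads in Zscan4- and 11 and 18 reads in Zscan4+ libraries. Pooled and scaled to library totals, the reads gave a Zscan4+ to Zscan4- ratio of 0.373, with an exact 95% interval of 0.231 to 0.587 that covers counting error only. In Zscan4+ cells it was among the weakest of the list, at percentiles 0.8 and 1.9, against 10.0 and 32.8 in Zscan4- cells. Peak calling is not given, so it may be listed through its Zscan4- signal, which the p-value does not account for. The call was lost at a pseudocount of 0.1 and without Zscan4- replicate 1, where the difference was larger, at -1.23 (adjusted p = 0.052) and -1.38 (0.099). It was also lost without Zscan4- replicate 2 and without Zscan4+ replicate 1, where the difference was smaller, at -0.66 (0.96) and -0.69 (0.19). The other region of the window, R13067 (153458115 to 153458717), had 3.18 and 3.65 RPKM in Zscan4- and 1.82 and 3.76 RPKM in Zscan4+ cells. Its groups overlapped, at a log2 difference of -0.31 and a limma adjusted p of 0.64.

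Dnmt3l, the partner without catalytic activity, had 3 regions that lie within 11.0 kb of each other by their centres. The middle one, R02083 (chromosome 10, 77511609 to 77512031), was the strongest by far at 20.03 and 21.61 RPKM in Zscan4- and 14.26 and 22.33 RPKM in Zscan4+ cells. It stood between percentiles 90.7 and 91.2 in all 4 libraries, so its rank in the list was nearly the same in both cell states. R02082 (77506203 to 77506979) had 3.63 and 4.86 RPKM in Zscan4- and 1.48 and 3.32 RPKM in Zscan4+ cells, with no overlap. Its log2 difference was -0.77 with a limma adjusted p of 0.13. The adjusted p was 0.016 with the block and median centring, which called 24.5% of all regions lower. Of the summed signal of the window, R02082 had 18.1% and 23.0% in Zscan4- and 12.4% and 16.6% in Zscan4+ cells, and R02083 had 54.2% and 55.7% against 64.7% and 60.7%. R02084 (77517110 to 77517995), the third, had 4.89 and 3.94 RPKM in Zscan4- and 2.41 and 3.97 RPKM in Zscan4+ cells, with overlap and a log2 difference of -0.44 (adjusted p = 0.46). Shares within a window do not depend on how a library is scaled, and they are given with no test.

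Uhrf1, which brings Dnmt1 to replicated DNA, had 4 regions, and none was called. At an unadjusted limma p under 0.05 the count was also 0 of 4, where 26.2% of all regions passed. The strongest, R09913 (chromosome 17, 56442963 to 56443307), had 33.05 and 47.30 RPKM in Zscan4- and 27.19 and 58.61 RPKM in Zscan4+ cells. The replicates of each group lay further apart than the groups, and the log2 difference was 0.01 (limma adjusted p = 0.99). R09912 (56429555 to 56429799) had 19.79 and 28.38 RPKM in Zscan4- and 21.97 and 36.30 RPKM in Zscan4+ cells, a log2 difference of 0.25 with an adjusted p of 0.77. Both stood at percentile 91.0 or above in every library. R09911 (56418932 to 56420858) only partly overlaps the window. It had 4.13 and 3.8 RPKM in Zscan4- and 1.87 and 3.03 RPKM in Zscan4+ cells, without overlap, and a log2 difference of -0.63 with an adjusted p of 0.25. With the block and median centring, which called 24.5% of all regions lower, it was called at 0.047. R09914 (56463841 to 56465185) had 5.84 and 6.12 RPKM in Zscan4- and 5.37 and 8.04 RPKM in Zscan4+ cells, which lay on both sides, at a log2 difference of 0.13 (adjusted p = 0.88).

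Tet1, a dioxygenase that oxidises methylcytosine, had 8 regions, of which 5 had a difference above 0 and 3 below. None was called as deposited. R01932 (chromosome 10, 62301960 to 62303542) had the highest difference. It had 2.54 and 2.17 RPKM in Zscan4- replicates 1 and 2, and 3.42 and 6.04 RPKM in Zscan4+ replicates 1 and 2. Both Zscan4+ values lay above both Zscan4- values, at a log2 difference of 0.83 (standard error 0.35, limma adjusted p = 0.096). It was called with the replicate block at an adjusted p of 0.041 and with median centring at 0.011, but not with voom (0.077). Without Zscan4+ replicate 2 the difference was 0.46 (adjusted p = 0.24), and without Zscan4+ replicate 1 it was 1.20 (0.015). Its rank went from percentiles 11.5 and 8.2 in Zscan4- to 40.9 and 56.9 in Zscan4+ cells. The strongest region, R01930 (62255497 to 62255756), had 55.94 and 40.43 RPKM in Zscan4- and 40.97 and 44.38 RPKM in Zscan4+ cells. It stood at percentile 98.2 or above in all 4 libraries, with overlapping groups and a log2 difference of -0.16 (adjusted p = 0.88). The lowest difference, -0.29 (adjusted p = 0.68), was that of R01935 (62327576 to 62328848), with 6.25 and 6.99 RPKM in Zscan4- and 4.00 and 7.01 RPKM in Zscan4+ cells. The other 5 regions had differences between -0.28 and 0.63, and none was called as deposited. R01931 (62266968 to 62268586) had 3.11 and 1.77 RPKM in Zscan4- and 4.16 and 3.73 RPKM in Zscan4+ cells. It was called with the block and median centring at an adjusted p of 0.012, where 20.7% of all regions were called higher. R01936 (62332223 to 62333417) had 3.45 and 3.06 RPKM against 3.76 and 4.79 RPKM. In both, and in R01932, the Zscan4+ libraries lay above the Zscan4- libraries, a pattern held by 18.6% of all regions. The reverse held in 35.1%. R01934 (62322975 to 62325413) was the one Tet1 region with both Zscan4+ libraries below both Zscan4- libraries, at 2.58 and 3.22 RPKM against 3.88 and 3.35 RPKM. R01933 (62317384 to 62318512) had 3.30 and 4.04 RPKM in Zscan4- and 3.59 and 5.85 RPKM in Zscan4+ cells, and R01937 (62339840 to 62342348) had 3.61 and 3.50 RPKM against 3.21 and 5.06 RPKM, and their groups overlapped.

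The Tet2 window, around the other dioxygenase, had 4 regions. Of these, 2 were weak in Zscan4- cells and rose in Zscan4+ cells. The other 2, whose levels in Zscan4- cells were higher than those of the first 2, were not called. R14529 (chromosome 3, 133145167 to 133146375) had 0.67 and 0.75 RPKM in Zscan4- replicates 1 and 2, and 4.53 and 4.94 RPKM in Zscan4+ replicates 1 and 2. The replicates of each group lay close together and the groups far apart. The log2 difference was 2.11 (standard error 0.36, limma adjusted p = 2.02e-07), and it was 2.10 in pair 1 and 2.12 in pair 2. The reads behind it were 8 and 16 in Zscan4- and 100 and 95 in Zscan4+ libraries. Scaled to library totals, pooled reads were 6.58 times higher in Zscan4+ cells, with an exact 95% interval of 4.29 to 10.5 for counting error only. In the order of the list it went from percentiles 3.4 and 3.5 in Zscan4- to 62.5 and 41.6 in Zscan4+ cells. Since peak calling is not given, R14529 may be listed through its Zscan4+ signal, which its p-values do not account for. It was called under each of the other settings of the fit, with any 1 library left out included. Its adjusted p was then between 6.28e-09 with the replicate block and 0.0056 without Zscan4- replicate 2.

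R14528 (chromosome 3, 133125136 to 133126031), whose centre lies 20.2 kb from that of R14529, had 1.12 and 1.20 RPKM in Zscan4- and 2.26 and 4.42 RPKM in Zscan4+ cells. Both Zscan4+ values lay above both Zscan4- values, and the Zscan4+ replicates lay further apart than the Zscan4- replicates. The log2 difference was 1.15 (standard error 0.37, limma adjusted p = 0.016), from 10 and 19 reads in Zscan4- and 37 and 63 reads in Zscan4+ libraries. The ratio of pooled reads was 2.79, with an exact 95% interval of 1.83 to 4.38. This region too may be listed through its Zscan4+ signal, which the p-value does not account for. The call was lost without Zscan4- replicate 1 (adjusted p = 0.38), Zscan4- replicate 2 (0.42) or Zscan4+ replicate 2 (0.11), and the difference was 0.73 in the last case.

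In the other 2 regions of the Tet2 window, differences were below 0. R14530 (133196062 to 133197044), the strongest, had 30.22 and 26.60 RPKM in Zscan4- and 17.93 and 23.54 RPKM in Zscan4+ cells, without overlap. Its log2 difference was -0.45 with a limma adjusted p of 0.53. Of the fits to all 4 libraries, it passed only with the block and median centring (0.049), which called 24.5% of all regions lower. Without Zscan4+ replicate 2 its difference was -0.65. R14531 (133206356 to 133208316) had 6.16 and 6.32 RPKM in Zscan4- and 4.19 and 7.56 RPKM in Zscan4+ cells, a log2 difference of -0.13 with an adjusted p of 0.87. Shares of the window's summed signal are parts of 1 sum, so that a higher share of one region lowers those of the others, and they are given with no test. R14529 held 1.9% and 2.2% in Zscan4- and 16.4% and 12.5% in Zscan4+ cells, while R14530 held 68.1% and 64.5% against 52.9% and 48.3%. The shares of R14528 were 2.3% and 2.7% against 6.1% and 8.3%.

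**Figure D3:**
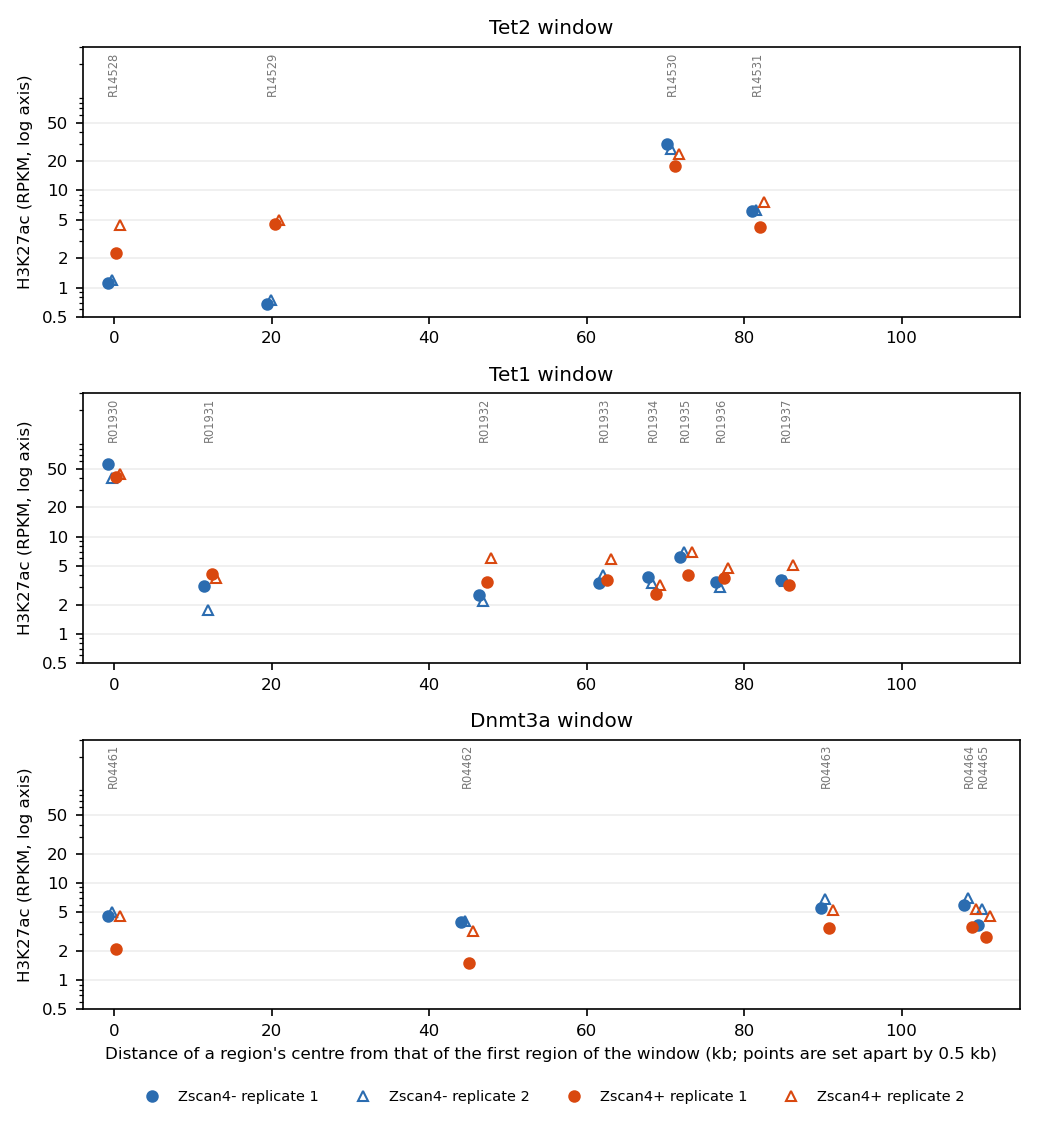
H3K27ac in RPKM (log axis) against the distance in kb from the first region of the Tet2, Tet1 and Dnmt3a windows, with 1 point per library in the colours and symbols of the other plots. In the Tet2 window the regions at 0 and 20.2 kb, weak in Zscan4- cells, are higher in Zscan4+ cells and the strongest, at 71.0 kb, is not. In the Dnmt3a window the orange circles of Zscan4+ replicate 1 lie lowest at all 5 regions.

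Taken over both Tet windows, 7 of 12 regions had a difference above 0 and 5 below, where 61.7% of all regions were below. The median was 0.23, against -0.17 over all regions. Both Zscan4+ libraries lay above both Zscan4- libraries in 5 of the 12, where 18.6% of all regions did, and below in 2, where 35.1% did. In pair 1, 6 of the 12 were lower in Zscan4+ cells, where 72.8% of all regions were. In pair 2 it was 2 of 12, where 46.2% of all regions were. Without Zscan4+ replicate 2 the median over the 12 was -0.08, with 5 above 0, against -0.42 over all regions. The 12 regions were chosen as a group of genes and share libraries, so these counts carry no test.

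Summed over a window, H3K27ac overlapped between the cell states for all genes but Dnmt3b and Dnmt3l. The sum adds, over the regions of a window, the RPM values. It was 56.5 ± 2.38 in Zscan4- and 45.1 ± 17.2 in Zscan4+ cells for Dnmt1, 4.16 ± 1.04 and 2.55 ± 1.20 for Dnmt3b, and 16.0 ± 0.55 and 12.4 ± 4.39 for Dnmt3l (SD, n = 2). For Uhrf1 it was 35.4 ± 4.77 and 35.6 ± 14.2, for Tet1 54.3 ± 4.97 and 59.8 ± 12.8, and for Tet2 42.0 ± 2.17 and 40.6 ± 10.3. For Dnmt3b and Dnmt3l both Zscan4+ libraries lay below both Zscan4- libraries, narrowly, at 3.40 against 3.43 and 15.5 against 15.6 for the nearest values. The sums of Dnmt3a overlapped at 30.8 in Zscan4- replicate 1 and 30.9 in Zscan4+ replicate 2. An exact two-sided permutation test of 2 libraries against 2 cannot go below p = 0.333. The rise of R14529 is not seen in the Tet2 sum, to which R14530 contributes most.

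**Figure D4:**
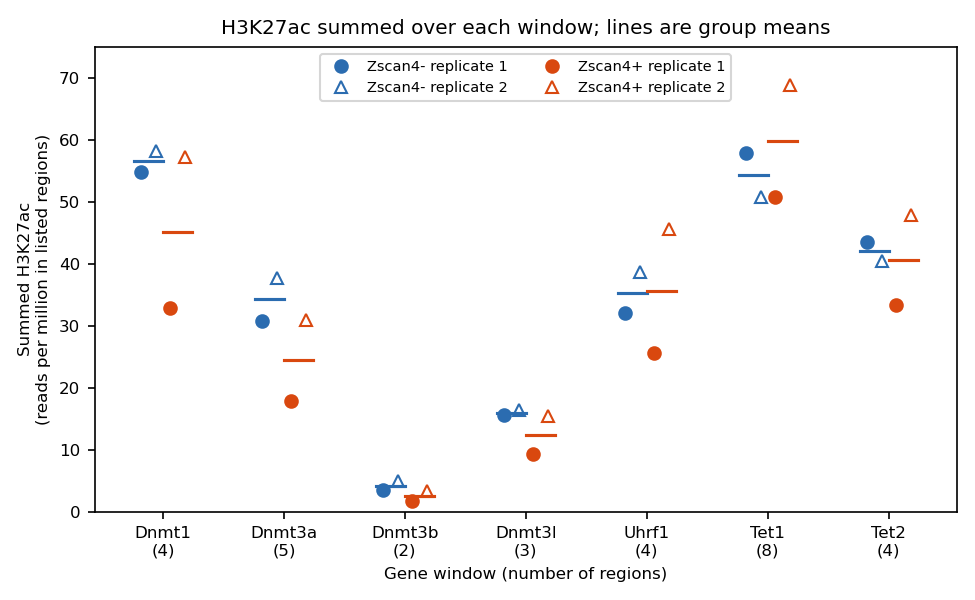
H3K27ac summed over the regions of each gene window, in RPM, with 1 point per library and a line at each group mean (2 libraries each). Zscan4+ replicate 1 (orange circle) is the lowest point of all 7 windows, and the Tet2 means of 42.0 and 40.6 nearly coincide.

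Across settings of the fit, some calls held and others followed the scaling. The rise at Tet2 R14529 was called in all 12 settings drawn. Dnmt1 R22229 and Tet1 R01932 were just short of the threshold as deposited, and passed with the replicate block, with median centring and with quantile normalization. Without Zscan4+ replicate 2, so that Zscan4+ replicate 1 stood alone, 13 of the 30 regions were called lower, against 31.5% of all regions, and 16 were lower at an unadjusted limma p under 0.05, against 40.4%.

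**Figure D5:**
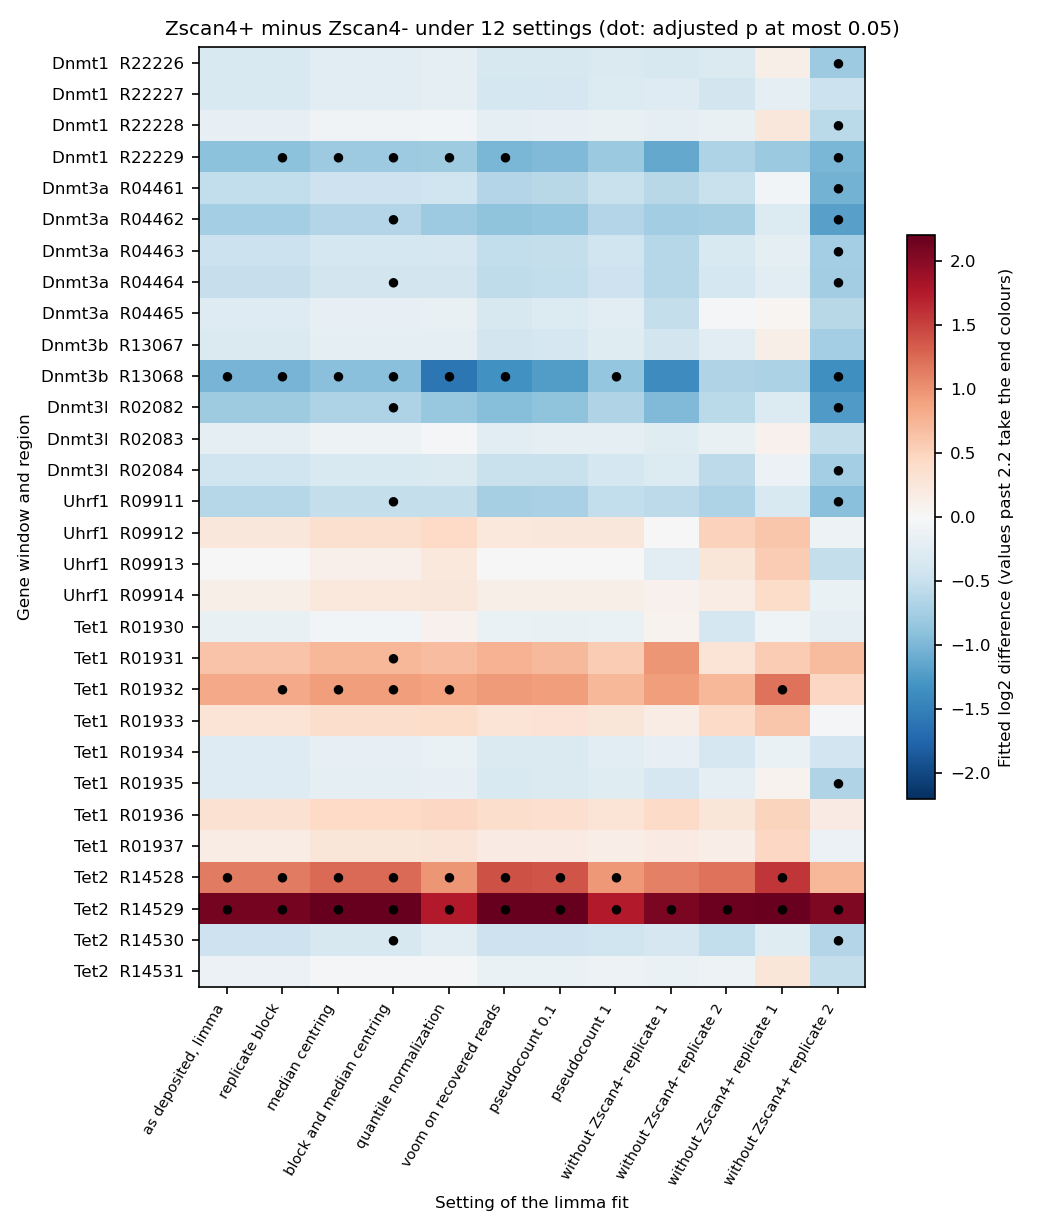
Fitted log2 difference of Zscan4+ minus Zscan4- (colour) for the 30 regions (rows) under 12 settings of the limma fit (columns), with a dot where the adjusted p was at most 0.05. The row of Tet2 R14529 has a dot in every column, and the last column, without Zscan4+ replicate 2, has 13 dots on blue cells.

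The regions outside the windows whose levels over the 4 libraries were most like those of Tet2 R14529 lay on other chromosomes: R21349 on chromosome 8 (83246622 to 83247407), R12134 on chromosome 2 (38769831 to 38771116) and R00163 on chromosome 1 (24252557 to 24253868). Likeness was the Euclidean distance on log2(RPKM + 0.5), which was 0.16, 0.18 and 0.20. For Dnmt3b R13068 the nearest were R18223 on chromosome 6 (72516343 to 72516843), R16785 on chromosome 5 (73579744 to 73581332) and R16206 on chromosome 4 (151714840 to 151715466), at distances of 0.18, 0.23 and 0.23.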

How the data were processed

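H3K27ac ChIP-seq values of 4 libraries, 2 per group, were used as deposited. Per the file headers the values are RPKM, which the authors gave with 2 decimals. Bowtie, HOMER and mm9 are named in the submitters' processing notes. Not given in the sources used here are versions, peak calling and the use of an input. One list of regions serves every library. Reads were recovered from RPKM times width, with 97.11% to 99.59% of values below 50 reads within 0.1 of a whole number. Library totals ran from 9930415 to 18283560 reads. A count of 0 allows 3 reads, or 0.148 to 0.272 RPKM at the median width of 1111 bp.

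The comparison of the groups used limma 3.58.1 (R 4.3.3) on log2(RPKM + 0.5) with a variance trend, and a minimum mean level of 0.5 RPKM, which removed 0 regions. P-values were two-sided, and they rest on a variance that limma shares between regions of like level. Intervals used scipy 1.17.1 in Python 3.11.15. The members, gene groups and rules were chosen with earlier results of these data known. Named regions were, in each window, the strongest, those with the highest and lowest difference, and any called; a few others are given because they complete a window. Replicate numbers pair the libraries, since the labels give replicate 2 a preparation of its own; across regions the replicate differences of the groups correlated at 0.352. Replicates differed by more than sampling noise, at a chi-square of 1.91 and 2.93 per degree of freedom. Alternatives were the replicate block, median centring, both together, quantile normalization, pseudocounts of 0.1 and 1, a minimum of 2 RPKM or none, no variance trend, voom on recovered reads, regions wholly inside a window, and each library left out in turn. The fit was tested on simulated data. Other genes of the pathway and cell type markers were not analysed here, because the regions carry no gene names and no windows were set for them.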

Additional observations from a re-analysis of the deposited data

How the results depend on the processing

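As deposited, 2 of the 30 regions were called higher and 1 lower, against 8.01% and 6.82% of all regions. Higher calls numbered 4 with the replicate block and median centring together, and 1 to 3 when 1 library was left out. With the block and median centring, 20.7% of all regions were called higher. For fits with 1 library left out no share of higher calls is given, so those counts are not read against the list. Lower calls numbered 2 with the replicate block, median centring, quantile normalization or voom, against 10.9%, 15.1%, 13.7% and 7.8% of all regions. Lower calls numbered 7 with the block and median centring, against 24.5%. They numbered 0 with a pseudocount of 0.1, against 6.6% (limma; 4 at an unadjusted p under 0.05, as 15.3% of all regions). They numbered 0 to 13 when 1 library was left out, with 0 to 16 at an unadjusted p under 0.05. Over all regions the lower calls then moved as widely, from 0.246% to 31.5%, and from 3.06% to 40.4% at an unadjusted p. The replicate block otherwise changed the calls of Dnmt1 R22229 and Tet1 R01932 only. Of 284 values of the 19 named regions under other settings, 241 kept direction and side of the threshold, 24 newly passed, 7 no longer passed and 12 changed sign. Part of the 241 was fixed in advance, because keeping only regions wholly inside a window does not alter the fit of a region. Dropping the minimum level, which removed 0 regions, does not either. One sign change came with quantile normalization, Tet1 R01930 at 0.09 against -0.16. The others came with a library left out. Over those fits R22226 ran from -0.80 to 0.13, R22228 from -0.60 to 0.25, R04465 from -0.60 to 0.043, R13067 from -0.75 to 0.12, R02083 from -0.53 to 0.10, R09912 from -0.11 to 0.60, R09913 from -0.53 to 0.56, R01930 from -0.39 to 0.076 and R01935 from -0.66 to 0.079. The window sums moved by more than the replicate spread in 6 of 42 values, all without Zscan4+ replicate 2. The cause was not tested. In those sums Zscan4+ replicate 1 stands alone. The limma fits without Zscan4+ replicate 2 also assume that it varies like the Zscan4- libraries. Depth limits R13068 and the 2 called Tet2 regions, which held 8 to 48 reads in the Zscan4- libraries.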

Other observations

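The members of highest RPKM were narrow. Of the 5 regions with a mean above 15 RPKM over the 4 libraries, 4 were narrower than 430 bp (R02083, R09912, R09913 and R01930), and all 25 others were at least 602 bp wide. The exception among the 5 was Tet2 R14530. This held for the list as a whole, where 79.2% of the 3090 regions above that level were narrower than 430 bp, against 19.0% of all regions. The limits were chosen after the values were seen. No narrow member was called as deposited, where 8.01% of all regions were called higher and 6.82% lower. With 4 regions that count says nothing about narrow regions.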
